A study of Mus musculus with 12 samples.

Results

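The genes of the MHC class II pathway and its invariant chain Cd74 were examined in sorted mouse alveolar type II (ATII) cells, the cells of the lung alveolus that make surfactant. The 9 genes Cd74, H2-Aa, H2-Ab1, H2-Eb1, H2-DMa, H2-DMb1, H2-Oa, Ciita and Ctss were chosen by their symbols, out of 23238 symbols in the count tables, and all 9 had counts. Of these 23238 symbols, 13054 passed a low-count filter and were tested, among them these 9. The cells came from 12 mice, 3 in each of 4 groups, with 1 mouse and 1 library per sample. Con mice carried the floxed p300 alleles without deletion (Spc-p300 f/f) and received PBS into the trachea, and BLM mice had the same genotype and received bleomycin at 4 mg/kg by the same route. KO mice had p300 deleted in ATII cells (Spc-p300 d/d) and received PBS, and KOBLM mice had the same deletion and received bleomycin. Bleomycin breaks DNA and injures the lung epithelium, and p300 is a histone acetyltransferase and transcriptional coactivator encoded by Ep300. LoxP sites flanked exon 9 of p300, and the Cre recombinase was driven by the promoter of the surfactant gene Sftpc (Spc-CreERT2) and induced by tamoxifen, given at 10 mg/kg to mice aged 8 weeks. The labels call the Con and BLM animals WT and do not say whether they were given tamoxifen. For sorted cells used in PCR, the study's supplement describes floxed mice given vehicle in place of tamoxifen, and for the sequenced mice the sources used here do not state it, while the study's sorting methods call them C57BL/6 in place of floxed.

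MHC class II molecules present peptides from endocytosed proteins to CD4+ T cells. Each molecule is a dimer of an α and a β chain, which assembles in the endoplasmic reticulum with the invariant chain, CD74. CD74 fills the peptide groove and is then cut down by endosomal proteases, of which cathepsin S (Ctss) makes the last cuts, leaving the fragment CLIP. H2-DM exchanges CLIP for other peptides, and H2-O inhibits H2-DM. Transcription of these genes depends on CIITA, a coactivator that binds no DNA itself but joins the RFX, CREB and NF-Y factors on the X and Y boxes of class II promoters and recruits the acetyltransferases CBP and p300. ATII cells are among the few epithelial cells known to carry class II molecules without an infection. CD74 was also, with EpCAM, a marker by which the cells were sorted, so every sample was selected for CD74 protein on its cells.

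The promoters of H2-Aa and H2-Eb1 are shown because these were the members that passed the threshold after bleomycin, and because they differ in how much of the letters searched for they hold. The sequences are from RefSeq on GRCm38.p6, 5′ to 3′ in the direction of the gene. Capitals mark a Y box (ATTGG, the site of NF-Y) and, before it, letters of the X box (AGNAACNG, overlapping ACNGATG).
H2-Aa, chr17:34287852-34287916, minus strand: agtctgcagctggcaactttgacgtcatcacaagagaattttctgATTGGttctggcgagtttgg
H2-Eb1, chr17:34305763-34305827, plus strand: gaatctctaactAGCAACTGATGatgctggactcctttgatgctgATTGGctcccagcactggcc
The Y box began 48 bases before the RefSeq start of H2-Aa and 59 bases before that of H2-Eb1, where 25 bases separated it from the X box core. In H2-Aa the letters searched for were not in this stretch ahead of the Y box. Looser forms of the X box and sites of CREB were not searched for, so this does not show that H2-Aa lacks an X box. Both printed stretches lie upstream of the first exon in GENCODE M21, and the antisense gene Gm20513 overlaps H2-Eb1.

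Windows from 250 bases before to 50 bases after a start were searched in 6 of the 9 genes, H2-DMa with 2 starts. Cd74, on chromosome 18, was left out of this search, and H2-Ab1 and Ciita had no window. On either strand, ATTGG was found in H2-Aa, H2-Eb1, H2-DMb1, H2-Oa and 1 of the 2 starts of H2-DMa but not in Ctss, against 37.4% of 32851 promoters of the same length. The X box core AGNAACNG was found in H2-Eb1, H2-DMb1 and H2-Oa (17.4% of all promoters), and ACNGATG in these and in H2-Aa and Ctss (9.85% of all promoters). An X box part ahead of a Y box in the sense direction, 10 to 50 bases apart, was held by H2-Eb1 and H2-DMb1 and by 142 promoters in all (0.432%). This arrangement was chosen after the sequences had been seen, and a match describes letters only.

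The total count per library was 7005005 to 11153154 (median 9186234), so that 3 counts, taken as the detection floor, were worth 0.269 to 0.428 CPM, the count scaled so that each library has the same total. No correction for PCR copies is stated, so the floor speaks of counting error alone. The kit reads the 3′ end of transcripts, so that CPM can be set side by side between genes without regard to their length. The libraries held 6847 to 13838 detected genes, the fewest in BLM 3, which stands apart from the rest. A list of 10 leukocyte markers summed to 733 CPM in BLM 3 and to 6003 to 11330 CPM in the other 11 libraries, and 17 macrophage and monocyte markers summed to 904 CPM in it and to 7892 to 38410 CPM elsewhere. The 12 ATII markers summed to 756 to 2252 CPM in Con, 459 to 905 CPM in BLM, 186 to 829 CPM in KO and 187 to 693 CPM in KOBLM, below the leukocyte sum in every library except BLM 3. Sftpc, the gene that defines ATII cells, ranged from 0.554 to 612 CPM. Ep300 was measured at 51.0 to 143 CPM in Con, 42.6 to 119 CPM in BLM, 103 to 154 CPM in KO and 54.2 to 169 CPM in KOBLM, but the kit reads the 3′ end and not exon 9, so these values do not check the deletion, and genotypes rest on the labels.

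The genes of the α and β chains, H2-Aa, H2-Ab1 and H2-Eb1, were highest in 2 of the 3 BLM mice. H2-Aa and H2-Eb1 were higher in BLM than in Con at the study's threshold, which asks for a change of more than 1.5-fold together with an unadjusted p under 0.05 (edgeR's quasi-likelihood test). Their means in BLM were 3.10-fold and 3.30-fold those in Con. In KOBLM the means of the chains lay between 0.331 and 0.357 of those in BLM, and this difference did not pass the threshold. KO and Con did not differ in these chains at the threshold either.

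H2-Aa, the α chain of I-A, was measured at 1044, 1396 and 395 CPM in the 3 Con mice, 2501, 5724 and 552 CPM in BLM, 609, 528 and 1435 CPM in KO and 1148, 538 and 1319 CPM in KOBLM. BLM 1 and BLM 2 lay above the other 10 libraries, and BLM 3 lay within the range of Con. The group means were 945 ± 508 CPM in Con, 2926 ± 2612 CPM in BLM, 857 ± 502 CPM in KO and 1002 ± 411 CPM in KOBLM (SD, n = 3 each). From BLM down through KOBLM and Con to KO, each group overlapped the next. The log2 fold change between BLM and Con was 1.75 (SE 0.77, edgeR p = 0.0389, adjusted p = 0.995), and an exact permutation test of the CPM gave p = 0.3. Between KOBLM and BLM it was -1.56 (SE 0.77, edgeR p = 0.0608, adjusted p = 1.0, exact permutation p = 0.3). Both comparisons use the same BLM mice, and with 3 mice a group the permutation test cannot go below 0.1.

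H2-Ab1, the β chain of I-A, was measured at 884, 1029 and 203 CPM in Con, 1412, 3392.5 and 459 CPM in BLM, 408, 343 and 849 CPM in KO and 763, 412 and 705 CPM in KOBLM. It had the same libraries at its top and bottom as H2-Aa, with BLM 2 the highest and Con 3 the lowest of the 12. Means were 705 ± 441 CPM in Con, 1755 ± 1496 CPM in BLM, 534 ± 275 CPM in KO and 627 ± 188 CPM in KOBLM (SD, n = 3 each). Its log2 fold change did not pass the threshold between BLM and Con (1.43, SE 0.74, edgeR p = 0.0749, adjusted p = 0.995, exact permutation p = 0.4) or between KOBLM and BLM (-1.50, SE 0.75, edgeR p = 0.0636, adjusted p = 1.0, exact permutation p = 0.3).

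H2-Eb1, the β chain of I-E, was measured at 618, 995 and 167 CPM in Con, 1567, 4054 and 256 CPM in BLM, 398, 304 and 664 CPM in KO and 854, 349.8 and 745 CPM in KOBLM. Again BLM 1 and BLM 2 were above the other 10 libraries and BLM 3 was among the lowest. The means were 593 ± 414, 1959 ± 1929, 455 ± 187 and 649 ± 265 CPM in Con, BLM, KO and KOBLM (SD, n = 3 each). BLM exceeded Con by a log2 fold change of 1.85 (SE 0.86, edgeR p = 0.0482, adjusted p = 0.995, exact permutation p = 0.3). KOBLM differed from BLM by -1.62 (SE 0.85, edgeR p = 0.0767, adjusted p = 1.0, exact permutation p = 0.4). The symbol H2-Ea, of the I-E α chain, was not among those found, and the pseudogene H2-Ea-ps reached at most 4.35 CPM. Whether an I-E dimer was formed was therefore not measured. The antisense gene Gm20513 overlaps H2-Eb1, and whether the counting used strand is not given in the sources used here.

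**Figure D1:**
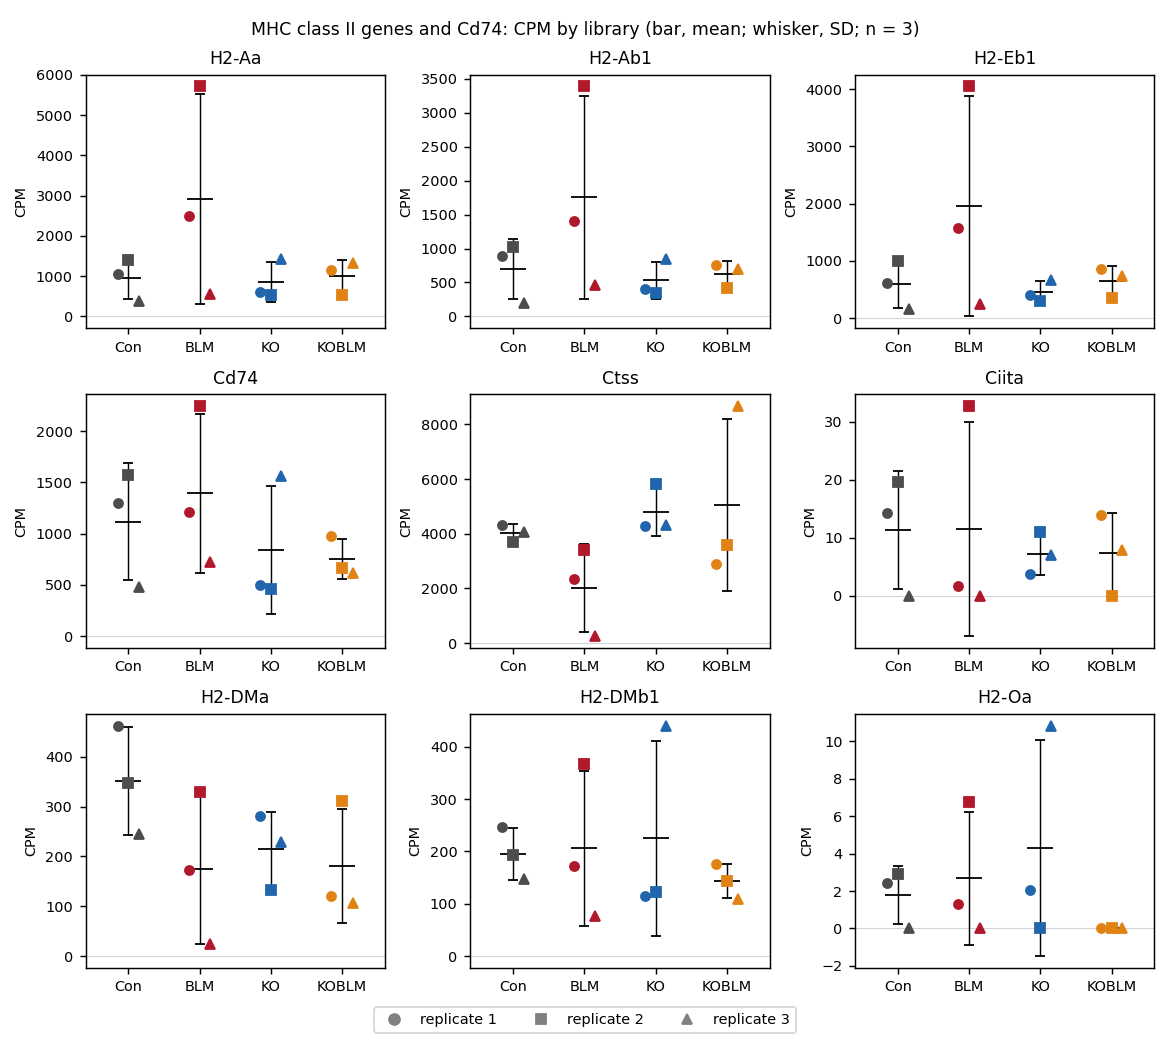
CPM of the 9 genes in each library (y axis) by group (x axis), with symbols for the replicates, a horizontal bar for the mean and a whisker for the SD (n = 3). H2-Aa, H2-Ab1 and H2-Eb1 are highest in BLM replicates 1 and 2, Ctss is lowest in BLM replicate 3 at 253 CPM, and H2-Oa is at 0 in all 3 KOBLM libraries.

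The calls for these chains turned on single libraries. Without BLM 2, the log2 fold change between BLM and Con was 0.69 for H2-Aa and 0.63 for H2-Eb1 and neither passed. Without Con 1 (1.81 and 1.86 for H2-Aa and H2-Eb1) or without Con 3 (1.37 and 1.40) neither passed either. Without BLM 3, the values were 2.27 for H2-Aa, 1.92 for H2-Ab1 and 2.39 for H2-Eb1, and all 3 chains passed. Without BLM 3, KOBLM lay below BLM by log2 fold changes of -2.08 for H2-Aa, -1.99 for H2-Ab1 and -2.16 for H2-Eb1, all past the threshold, whereas without BLM 2 these were -0.50, -0.46 and -0.40 and none of the 3 passed. Some markers of other cell types were high in the same libraries, in genes picked after their values were seen. The complement genes C1qa, C1qb and C1qc, expressed by macrophages, summed to 2041 CPM in BLM 1 and 2533 CPM in BLM 2, against 85.5 CPM in BLM 3, 10.7 to 53.6 CPM in Con, 33.4 to 1065 CPM in KO and 96.9 to 774 CPM in KOBLM. Ccr2, a receptor of recruited monocytes, was at 343 and 348 CPM in BLM 1 and BLM 2 and at 0 to 100.1 CPM in the other 10 libraries. Thus BLM 1 and BLM 2, the libraries highest in the chains, were also the highest in these markers. The sum of all 17 macrophage and monocyte markers, of which Chil3 is the most abundant, was not highest there. Siglecf was at 20.8 and 32.3 CPM in BLM 1 and BLM 2, against 175 to 198 CPM in Con. Ear2, Mrc1, Adgre1, Mertk, Cd68 and Chil3 were likewise lower in both than in every Con library. Csf1r, Cd14, Itgam and Ly6c2 were higher in both, and Marco and Fcgr1 overlapped Con. The 10 dendritic cell markers summed to 668, 1723 and 213 CPM in BLM, 623 to 794 CPM in Con, 352 to 971 CPM in KO and 399 to 921 CPM in KOBLM. The sum was highest in BLM 2 only with the chemokine gene Ccl17 included. Ccl17 was at 476, 1271 and 45.1 CPM in BLM and at most 44.0 CPM elsewhere. Without Ccl17 the sums were 191, 452 and 168 CPM in BLM, below those of 623 to 794 CPM in Con. Most of that remainder in Con was Itgax (522 to 728 CPM), which was at 85.4, 160.5 and 141 CPM in BLM. Ccr7 (139 CPM), Ccl22 (70.8 CPM) and Flt3 (31.3 CPM) were also highest in BLM 2. Itgax, Zbtb46, Xcr1, Clec9a, Cd209a and Batf3 were highest in other libraries. Of the defining genes, Zbtb46 was at 0 in 9 libraries and Flt3 in 6. The 5 fibroblast markers summed to 1839, 1223 and 1134 CPM in BLM and to at most 658 CPM in the other 9 libraries. The part of other cell types in these values was not tested, and in bulk RNA fewer cells of a type and less RNA per cell cannot be told apart.

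Cd74 itself varied less than the chains it accompanies, over a 4.88-fold range among the 12 libraries against 14.5-fold for H2-Aa, 16.8-fold for H2-Ab1 and 24.2-fold for H2-Eb1. It was measured at 1299, 1574 and 476 CPM in Con, 1209, 2247 and 723 CPM in BLM, 504, 460.4 and 1560.3 CPM in KO and 981, 669 and 617 CPM in KOBLM. All groups overlapped, and the KOBLM libraries were the closest together. The mean was 1116 ± 571 CPM in Con, 1393 ± 779 CPM in BLM, 841 ± 623 CPM in KO and 756 ± 197 CPM in KOBLM (SD, n = 3 each). The log2 fold change was 0.40 (SE 0.61) between BLM and Con, -0.87 (SE 0.61) between KOBLM and BLM and -0.40 (SE 0.61) between KO and Con, each with edgeR's adjusted p = 1.0, and the exact permutation tests gave p = 0.7, 0.2 and 0.7. Without BLM 3, the difference between KOBLM and BLM was -1.25 and passed the threshold, whereas without BLM 2 it was -0.21 and that between BLM and Con turned to -0.27. The cells were gated on CD74 protein, and the part of the gate in these values was not tested.

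Ctss, which encodes the protease that makes the last cuts in the invariant chain, had a higher mean CPM than the other 8 genes in Con, KO and KOBLM. It was measured at 4321, 3696 and 4080.2 CPM in Con, 2359, 3405 and 253 CPM in BLM, 4292, 5817 and 4307 CPM in KO and 2901, 3589 and 8681 CPM in KOBLM. Every BLM library lay below every Con library, and BLM 3 was by far the lowest of the 12. The means were 4032 ± 315, 2006 ± 1606, 4806 ± 876 and 5057 ± 3157 CPM in Con, BLM, KO and KOBLM (SD, n = 3 each). The exact permutation test between BLM and Con gave p = 0.1, the smallest it allows, and the log2 fold change was -0.87 (SE 0.73, edgeR p = 0.256, adjusted p = 1.0). Between KOBLM and BLM the log2 fold change was 1.33 (SE 0.74, edgeR p = 0.0936, adjusted p = 1.0, exact permutation p = 0.2). It was 0.62 without KOBLM 3, 0.79 without BLM 3, and 2.04 and past the threshold without BLM 2. The difference between BLM and Con was -1.57 without BLM 2 and -0.33 without BLM 3. Cathepsin S is abundant in macrophages, whose markers were also lowest in BLM 3, and their part in Ctss was not tested.

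The chains of H2-DM, the editor that exchanges CLIP, passed the threshold in none of the 7 comparisons. H2-DMa was measured at 462.5, 347 and 244 CPM in Con, 172, 329 and 24.7 CPM in BLM, 280.2, 133 and 229 CPM in KO and 122, 312 and 107 CPM in KOBLM. BLM 3 was its lowest library and Con 1 its highest. The means were 351 ± 109, 175 ± 152, 214 ± 74.6 and 180.0 ± 114 CPM in Con, BLM, KO and KOBLM (SD, n = 3 each), and the log2 fold change between BLM and Con was -0.86 (SE 0.77, edgeR p = 0.281, adjusted p = 1.0, exact permutation p = 0.2). It was -1.80 without BLM 2 and -0.33 without BLM 3, neither past the threshold. H2-DMa overlaps Brd2 on the opposite strand, so that reads in the shared stretch cannot be told apart unless strand was used. Whether that stretch reaches the 3′ end of either gene was not examined.

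H2-DMb1 was measured at 246, 192 and 146 CPM in Con, 172, 368 and 77.2 CPM in BLM, 114, 122 and 440.1 CPM in KO and 175, 143 and 109.9 CPM in KOBLM. KO 3 and BLM 2 stood highest, and the groups overlapped. Its means were 195 ± 50.01, 206 ± 148, 225 ± 186 and 143 ± 32.5 CPM in Con, BLM, KO and KOBLM (SD, n = 3 each), with a log2 fold change of 0.19 (SE 0.67) between BLM and Con and -0.54 (SE 0.67) between KOBLM and BLM (exact permutation p = 0.9 and 0.8, edgeR's adjusted p = 1.0 for both). The near copy H2-DMb2 held a mean of 0.386 to 3.49 CPM per group, and how reads shared by the copies were assigned is not given in the sources used here.

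H2-Oa, the α chain of the inhibitor H2-O, was close to the detection floor. It had 18, 27 and 0 counts in Con, 9, 51 and 0 in BLM, 20, 0 and 117 in KO and 0 in each of the 3 KOBLM libraries. It was thus uneven within groups, with a library at 0 in Con, in BLM and in KO as well. With 3 counts per KOBLM library taken as the floor, H2-Oa in KOBLM was at least 7.83-fold lower against BLM (edgeR p = 0.0566) and at least 12.6-fold lower against KO (edgeR p = 0.0503), and the exact permutation p was 0.4 for both. The antisense gene BC051537 overlaps H2-Oa.

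Ciita, the coactivator on which class II transcription depends, was low and uneven. It had 107, 183 and 0 counts in Con, 11, 248 and 0 in BLM, 36, 80 and 75 in KO and 104, 0 and 71 in KOBLM. Con 3 and BLM 3 held H2-Aa at 395 and 552 CPM with 0 counts of Ciita, which at their totals allows up to 0.283 and 0.269 CPM. The means were 11.3 ± 10.1, 11.4 ± 18.5, 7.19 ± 3.68 and 7.26 ± 6.98 CPM in Con, BLM, KO and KOBLM (SD, n = 3 each). Its log2 fold changes ranged from -0.71 to 0.18 over the 4 comparisons of pairs of groups, with SEs of 2.55 to 2.56, so that a change of the size seen in the chains could not be detected. Ciita overlaps Dexi on the opposite strand.

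**Figure D2:**
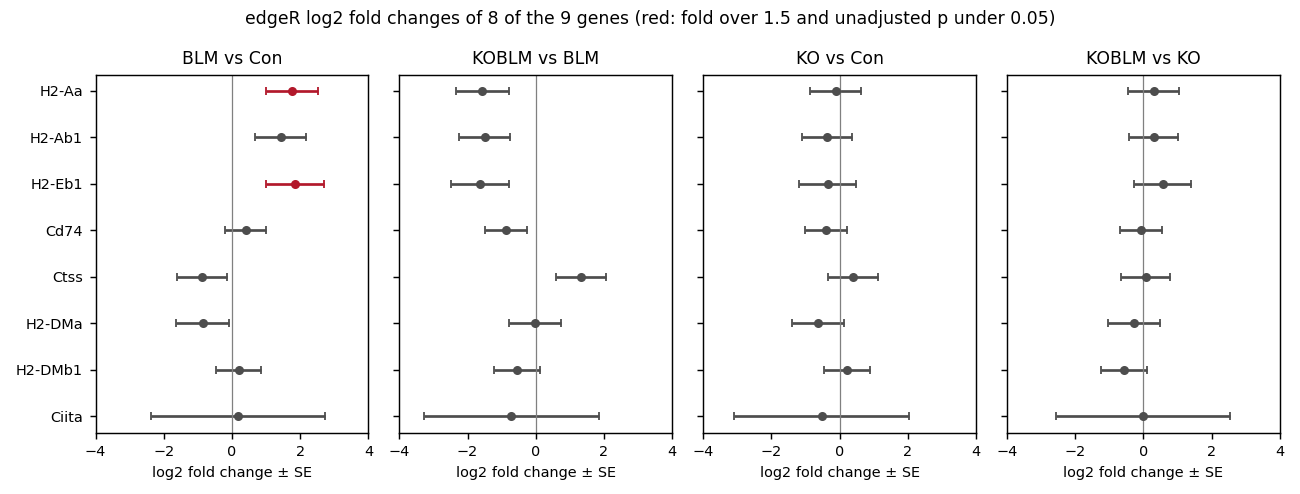
The log2 fold change (x axis) with its SE (whisker) of 8 of the 9 genes in the 4 comparisons, from edgeR. H2-Oa is left out because it is at 0 in all KOBLM libraries. H2-Aa (1.75) and H2-Eb1 (1.85) between BLM and Con, in red, passed the threshold, and the other values in grey did not.

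Over the 9 genes, 2 passed the threshold in BLM against Con, both higher, where 4.27% of all 13054 tested genes passed. Of the 9 log2 fold changes 7 were above 0, with a median of 0.40 against -0.08 for all genes. Between KOBLM and BLM 0 of the 9 passed (3.16% of all genes), 8 were below 0, and the median was -0.87 against 0.10. In KO against Con 0 passed (1.44% of all genes), with a median of -0.35 against -0.09, and in KOBLM against KO 0 passed (1.69% of all genes), with a median of -0.00 against 0.08. Averaged over both genotypes, the effect of bleomycin passed in 0 of the 9 genes (4.47% of all genes), and the effect of genotype averaged over both treatments in 0 (2.9% of all genes). The interaction, which asks whether bleomycin acted differently in the genotypes, passed in 0 of 9 (2.82% of all genes). The median interaction was -0.77 against 0.23 for all genes, and that of H2-Aa was -1.45 (SE 1.07, edgeR's adjusted p = 1.0). In each of these 7 comparisons edgeR gave 0 genes of all tested with an adjusted p under 0.05, against 188 to 584 at an unadjusted p under 0.05, while DESeq2 gave 57 to 114 of all genes with an adjusted p under 0.05.

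Without BLM 3, 3 of the 9 genes passed in BLM against Con (H2-Aa, H2-Ab1 and H2-Eb1, where 5.45% of all genes passed) and 5 were lower in KOBLM than in BLM (Cd74, H2-Aa, H2-Ab1, H2-Eb1 and H2-Oa, where 3.34% of all genes passed). Without BLM 2, 0 passed in BLM against Con (3.88% of all genes), and in KOBLM against BLM 1 gene passed, Ctss, which was higher (3.16% of all genes). When Con 3, BLM 3, KO 3 and KOBLM 2, the library of each group with the fewest genes, were all left out, which was decided once the data had been seen, the same 3 chains passed in BLM against Con (9.9% of all genes). In that setting 5 genes were lower in KOBLM than in BLM (5.72% of all genes), with H2-DMa in place of H2-Oa. Cd74 and H2-Ab1 were then lower in KO than in Con (4.28% of all genes).

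The CPM ranges of the groups did not overlap for 1 of the 9 genes between BLM and Con, Ctss (17.1% of all genes tested). They overlapped for all 9 between KOBLM and BLM (11% of all genes without overlap), KO and Con (9.74%) and KOBLM and KO (6.82%).

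Counts of the chains were next set against those of Cd74 in the same library, a ratio that does not depend on the library total. The ratio of H2-Aa to Cd74 was 0.804, 0.887 and 0.829 in Con, 2.07, 2.55 and 0.763 in BLM, 1.21, 1.15 and 0.919 in KO and 1.17, 0.804 and 2.14 in KOBLM. The Con libraries lay close together, and all 3 KO libraries lay above them, with the smallest exact permutation p that 3 against 3 allow (p = 0.1). BLM 1, BLM 2 and KOBLM 3 had more than 2 counts of H2-Aa for each count of Cd74. The ratio of H2-Aa to H2-Ab1, the partners of I-A, stayed between 1.18 and 1.95 in all 12 libraries, a 1.65-fold range, while H2-Ab1 itself varied 16.8-fold. That of H2-Eb1 to H2-Ab1 ranged from 0.558 in BLM 3 to 1.20 in BLM 2.

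The ratio of H2-DMa to H2-DMb1 was 1.88, 1.80 and 1.67 in Con, 1.001, 0.894 and 0.321 in BLM, 2.46, 1.10 and 0.521 in KO and 0.695, 2.18 and 0.971 in KOBLM. Every BLM library lay below every Con library (exact permutation p = 0.1, the smallest possible), whereas KO and KOBLM spread across both. The ratio of H2-DMa to Cd74 also separated BLM (0.0342 to 0.146) from Con (0.221 to 0.513), at p = 0.1 in the exact permutation test. The ratio of H2-DMb1 to Cd74 was 0.178 to 0.213 in KOBLM, above BLM (0.107 to 0.164) and below KO (0.227 to 0.282), again at an exact permutation p of 0.1 each. Ctss had 0.350 to 1.95 counts per count of Cd74 in BLM, below Con (2.35 to 8.56) and below KOBLM (2.96 to 14.1), at an exact permutation p of 0.1 for each. Over the 54 comparisons of ratios the adjusted p was at least 0.432. The ratios were added after the data had been seen.

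**Figure D3:**
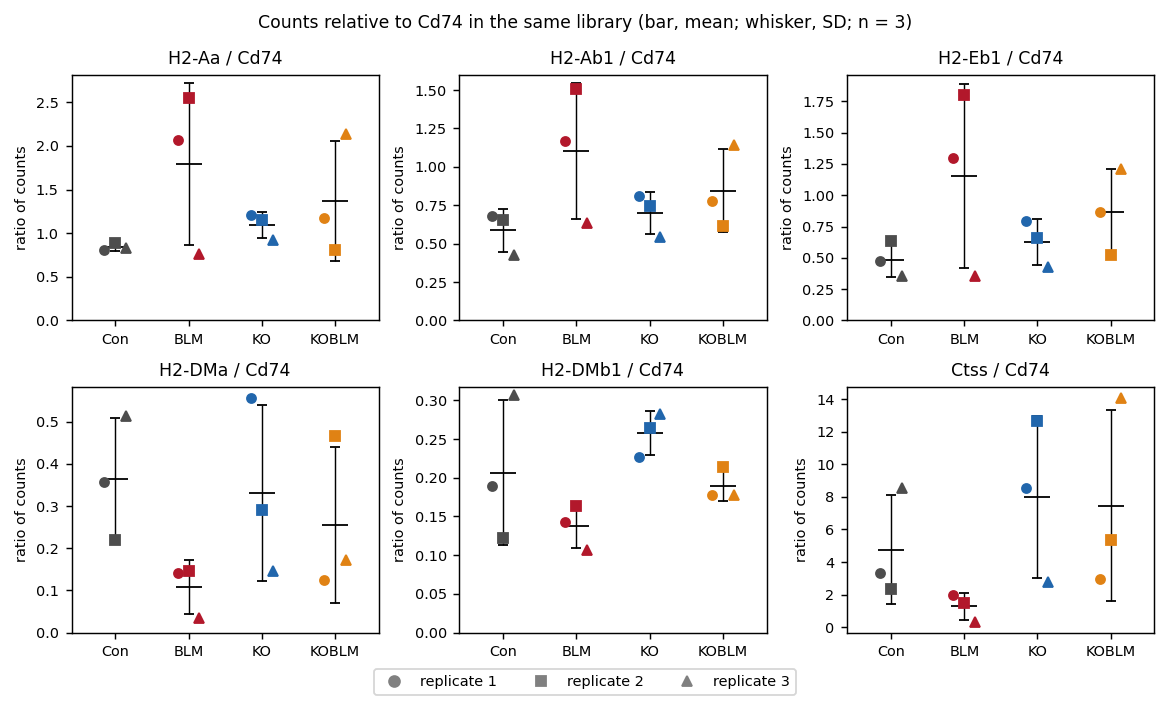
The count of 6 genes divided by the count of Cd74 in the same library (y axis) by group (x axis), with symbols for the replicates, a bar for the mean and a whisker for the SD (n = 3). H2-Aa lies between 0.804 and 0.887 in Con and reaches 2.55 in BLM, and H2-DMa and Ctss are lower in each BLM library than in each Con library.

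Across the 12 libraries, the chains followed Cd74. On log2(CPM + 1), Pearson's r with Cd74 was 0.89 for H2-Ab1 (permutation p = 5e-05, adjusted p = 0.0004) and 0.84 for H2-Aa (permutation p = 0.00055, adjusted p = 0.0021). It was 0.82 for H2-Eb1 (permutation p = 0.00095), 0.80 for H2-DMb1 (permutation p = 0.0011) and 0.77 for H2-Oa (permutation p = 0.0039), with adjusted p values of 0.0021, 0.0021 and 0.0063. Spearman's rho was 0.92, 0.82, 0.74, 0.77 and 0.77 for H2-Ab1, H2-Aa, H2-Eb1, H2-DMb1 and H2-Oa (permutation p = 0.00013, 0.0019, 0.008, 0.0048 and 0.0052, adjusted p = 0.001, 0.0078, 0.013, 0.01 and 0.01). Ciita (r = 0.57, rho = 0.56, permutation p = 0.058 and 0.061), H2-DMa (r = 0.34, rho = 0.45, permutation p = 0.29 and 0.15) and Ctss (r = -0.05, rho = -0.34, permutation p = 0.91 and 0.29) did not pass, with adjusted p values of 0.077 to 0.91. The adjustment is over the 8 correlations computed with each coefficient, and each point shares a library and its depth. The permutations moved libraries across the 4 groups, so they do not separate differences between groups from covariation within them.

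Without BLM 2 and Con 2, the libraries farthest from the median of Cd74, r was 0.84 for H2-Ab1, 0.76 for H2-Aa, 0.69 for H2-Eb1, 0.76 for H2-DMb1 and 0.67 for H2-Oa, with adjusted permutation p values of 0.022 to 0.048. By Spearman's rho, H2-Ab1 alone of these 5 then passed after adjustment (rho 0.90, adjusted permutation p = 0.0064), with rho of 0.73, 0.59, 0.66 and 0.63 and adjusted p values of 0.083, 0.13, 0.11 and 0.11 for H2-Aa, H2-Eb1, H2-DMb1 and H2-Oa. For these 4 genes rho was thus lower but still positive without BLM 2 and Con 2, and it no longer passed after adjustment. Fewer libraries also make a pass harder, so this does not show that their rank relation with Cd74 rested on BLM 2 and Con 2. Ciita (r = 0.31) and H2-DMa (r = 0.17) were also lower in that setting. Without BLM 3 it was 0.89, 0.84, 0.83, 0.86 and 0.77 for the same genes, and for Ctss it was -0.46, which did not pass. Among themselves the chains were closer still, with r of 0.98 between H2-Aa and H2-Ab1, 0.98 between H2-Aa and H2-Eb1 and 0.98 between H2-Ab1 and H2-Eb1. H2-DMa was nearest to Ctss (r = 0.68).

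**Figure D4:**
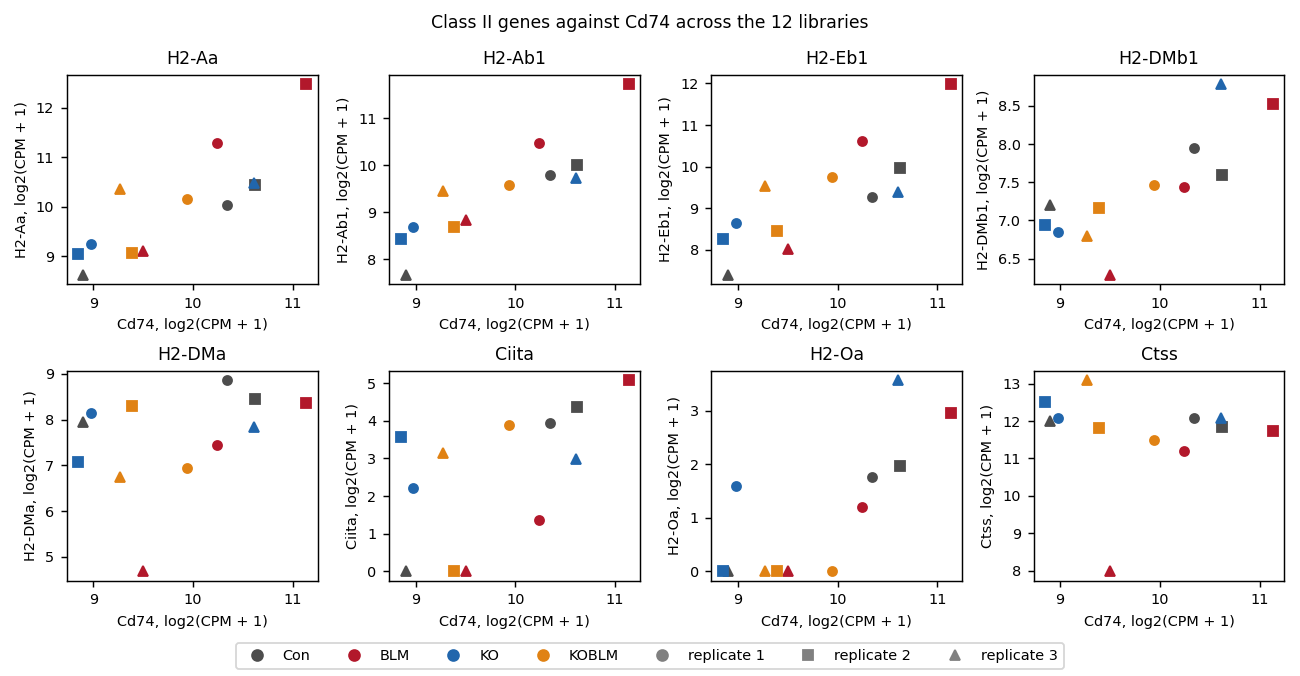
The log2(CPM + 1) of 8 genes (y axis) against that of Cd74 (x axis), each point being 1 of the 12 libraries, coloured by group with symbols for the replicates. H2-Ab1 rises along with Cd74 (r = 0.89), Ctss does not (r = -0.05), and H2-Oa lies at 0 in 6 libraries.

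Of 8977 genes with a mean of at least 10 CPM, the 5 whose log2(CPM + 1) followed Cd74 most closely were Akap11, Hnrnpa3, Socs7, Zfp397 and Hepacam2, with r of 0.80 to 0.82 over the 12 libraries. The 5 that followed the mean of H2-Aa, H2-Ab1 and H2-Eb1 most closely were Napsa (r = 0.87), Cst3 (r = 0.85), Stat3 (r = 0.84), Tef (r = 0.81) and Hint3 (r = 0.80). Each of these 5 was highest in BLM 2, the library in which the chains were highest. Napsa, 1 of the 12 ATII markers, encodes a protease, Cst3 an inhibitor of cathepsins and Stat3 a transcription factor of cytokine signalling. The other ATII markers did not share the pattern of Napsa in BLM 1 and BLM 2. Napsa was at 214 and 288 CPM there, against 40.4 to 122 CPM in Con. Sftpc was at 25.1 and 18.1 CPM, against 139 to 612 CPM in Con. Sftpa1, Sftpb, Cxcl15 and Epcam were also lower in both than in every Con library, and the remaining markers overlapped Con.

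Beyond the 9 genes, 38 of 41 other genes of the class II pathway were found in the files under the symbols used, and 36 were tested. Of these 36, 3 were higher in BLM than in Con (Jak2, Ctsl and Mif) and 0 were lower, where 4.27% of all genes passed, with a median log2 fold change of -0.38 against -0.08 for all genes. Mif passed as lower in KOBLM than in BLM (1 of 36, 3.16% of all genes), Ctsl as higher and H2-Eb2 as lower in KO than in Con (2 of 36, 1.44%), and Jak2 as higher in KOBLM than in KO (1 of 36, 1.69%). Averaged over genotypes, bleomycin went with higher Jak2 and Mif (2 of 36, 4.47% of all genes), and averaged over treatments the deletion went with lower H2-Eb2 (1 of 36, 2.9%). The factors that bind class II promoters (Rfx5, Rfxap, Rfxank, Creb1, Nfya, Nfyb and Nfyc), the interferon-γ receptor chains Ifngr1 and Ifngr2 and the interferon-induced factor Irf1 did not pass in any of the 7 comparisons.

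Jak2, the kinase that carries the interferon-γ signal from its receptor, was higher in every bleomycin library than in every PBS library. It was measured at 20.1, 26.2 and 8.76 CPM in Con, 122, 74.8 and 32.5 CPM in BLM, 17.7, 3.71 and 7.49 CPM in KO and 66.6, 135 and 53.0 CPM in KOBLM. The log2 fold change was 2.12 (SE 0.93, edgeR p = 0.0388) between BLM and Con and 3.12 (SE 0.97, edgeR p = 0.00606) between KOBLM and KO, with an exact permutation p of 0.1 for each. Averaged over genotypes it was 2.62 (SE 0.67, edgeR p = 0.00154, adjusted p = 1.0), and the exact permutation test over 6 against 6 libraries gave an unadjusted p = 0.00216, the smallest it allows. Jak2 is described because it passed the threshold in these same libraries, so this p is not separate support. Ranges did not overlap for 17.1% of all genes between BLM and Con and 6.82% between KOBLM and KO. For 6 against 6 libraries that share was not computed. The averaged difference passed without each library in turn, at 2.37 to 3.03, as did that between KOBLM and KO, whereas that between BLM and Con (1.61 to 2.54) passed without BLM 3 but not without any 1 of Con 1, Con 2, Con 3, BLM 1 and BLM 2.

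Ctsl, which encodes cathepsin L, an invariant chain protease of thymic epithelium, was measured at 178, 156 and 173 CPM in Con, 869.8, 1008 and 133 CPM in BLM, 255, 1137 and 279 CPM in KO and 199.8, 269.9 and 617 CPM in KOBLM. BLM 3 alone of the BLM libraries lay below Con, while every KO library lay above Con (exact permutation p = 0.1, the smallest possible). Ranges did not overlap between KO and Con for 9.74% of all genes. The log2 fold change was 2.11 (SE 0.83, edgeR p = 0.0237, exact permutation p = 0.4) between BLM and Con and 1.94 (SE 0.83, edgeR p = 0.0342) between KO and Con. The first was lost without Con 2, Con 3, BLM 1 or BLM 2 (1.61 to 2.10), and the other without Con 1, Con 2, Con 3 or KO 2 (0.695 without KO 2).

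Mif, a cytokine that binds CD74 at the cell surface, was measured at 55.9, 43.4 and 89.5 CPM in Con, 196, 137 and 1107 CPM in BLM, 59.2, 149.8 and 48.3 CPM in KO and 107, 77.8 and 151 CPM in KOBLM. All BLM libraries lay above all Con libraries, by most in BLM 3, where ranges did not overlap between these groups for 17.1% of all genes. Between BLM and Con its log2 fold change was 2.78 (SE 0.79, edgeR p = 0.00322, adjusted p = 0.995, exact permutation p = 0.1), and it was 1.55 without BLM 3, still past the threshold. The difference between KOBLM and BLM was -1.82 (SE 0.76, edgeR p = 0.0312, exact permutation p = 0.2), and -0.58 without BLM 3. This difference was lost without BLM 3, KOBLM 1 or KOBLM 2. Averaged over genotypes, the log2 fold change of Mif after bleomycin was 1.55 (SE 0.53, edgeR p = 0.0114, exact permutation p = 0.026). That averaged difference passed without each library in turn, at 0.93 to 1.93. H2-Eb2, a second I-E β chain gene, had 0, 49 and 115 counts in Con, 37, 18 and 0 in BLM, 0 in each KO library and 0, 1 and 0 in KOBLM. It was at or under the floor in all 6 libraries labelled as p300-deleted and in 1 library each of Con and BLM (exact permutation p = 0.4 between KO and Con, edgeR p = 0.0373). This call between KO and Con was lost without any 1 of Con 2, Con 3, KO 1, KO 2 and KO 3. Averaged over treatments, the difference in H2-Eb2 (edgeR p = 0.0135, exact permutation p = 0.0606) passed without each library in turn, at -8.07 to -6.70. It rests on a gene with at most 115 counts in a library.

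**Figure D5:**
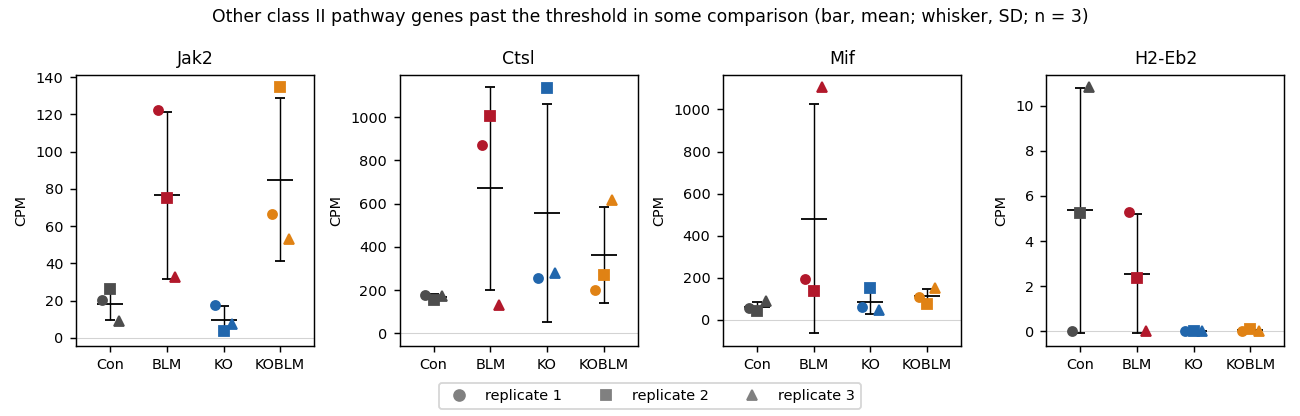
CPM (y axis) of the other class II pathway genes that passed the threshold in a comparison, by group (x axis), with symbols for the replicates, a bar for the mean and a whisker for the SD (n = 3). Jak2 is at 32.5 CPM or more in all 6 bleomycin libraries and at 26.2 CPM or less in the others, and Mif in BLM replicate 3 reaches 1107 CPM.

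In GENCODE M21 on GRCm38, the build of the counting per the labels being mm10, the class II genes lie together on chromosome 17: H2-Oa from 34092340 to 34095234, H2-DMa from 34119541 to 34139101, H2-DMb1 from 34153072 to 34160230, H2-Ab1 from 34257689 to 34269419, H2-Aa from 34282744 to 34287823 on the minus strand and H2-Eb1 from 34305867 to 34316674. Ciita lies on chromosome 16 from 10480059 to 10528418, Ctss on chromosome 3 from 95526786 to 95556403 and Cd74 on chromosome 18 from 60803848 to 60812652. The 3 chains that moved most alike, H2-Ab1, H2-Aa and H2-Eb1, are neighbours among these 9, whereas H2-DMa and H2-DMb1 are neighbours whose ratio had separate ranges in BLM and Con.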

How the data were processed

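RNA of sorted CD74+ EpCAM+ cells was sequenced with a 3′ kit (QuantSeq, single-end reads). The authors deposited raw counts per gene symbol for each library, not normalized, and per the labels' processing notes Bowtie2, edgeR and the build mm10 were used, in versions not given in the sources used here. Here, 79 entries of 35 symbols were summed and CPM was taken over the library total. edgeR 4.0.16 in R 4.3.3 was run on all 12 libraries (TMM, filterByExpr by group with minimum count 10, glmQLFit, glmQLFTest, two-sided, Benjamini-Hochberg over 13054 genes), leaving 8 residual degrees of freedom and a biological coefficient of variation of 1.44. The steps were tested on simulated counts. The threshold was the study's, a fold change over 1.5 with p under 0.05, taken as unadjusted. CPM and ratios were compared by exact permutation, and correlations with 100000 permutations (scipy 1.17.1). Labels gave the groups and replicate numbers, which were not used as pairs. Alternatives were other scalings, DESeq2 1.42.0, no filter, a replicate block, 2 groups only and leaving out libraries. All 9 genes are named, with pathway genes past the threshold. The genes and lists were chosen with earlier results of these data known.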

Additional observations from a re-analysis of the deposited data

Results flagged for a closer look

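The effect of bleomycin differed between the genotypes, at an unadjusted p under 0.05 for the interaction, for Ctsl and for Mif among the 36 tested genes of the pathway list. For Ctsl the interaction was -2.82 (SE 1.16, edgeR's adjusted p = 1.0), with a log2 fold change after bleomycin of 2.11 in mice with p300 and of -0.71 in mice labelled as deleted. For Mif it was -2.47 (SE 1.06, edgeR's adjusted p = 1.0), with 2.78 and 0.31. Leaving out each library gave -3.52 to -1.55 for Ctsl, lost without BLM 1, BLM 2, KO 2, KOBLM 1 or KOBLM 2, and -2.86 to -1.24 for Mif, lost without Con 1, Con 2, BLM 3, KO 2, KOBLM 1 or KOBLM 2. The lowest sizes were without KO 2 for Ctsl and without BLM 3 for Mif. Over all tested genes 2.82% passed in the interaction.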

How the results depend on the processing

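Counts of the 9 genes past the threshold depended on the setting. BLM against Con: 2, but 0 with an adjusted p, with 2 groups only (3.28% of all genes) and with a replicate block (3.02%). KOBLM against BLM: 0, but 1 with library size alone (3.75% of all genes), 4 without a filter (3 chains lower and Ctss higher, 3.69%) and 5 with the 2 libraries per group with the most genes (5.72%). KO against Con: 0, but 2 in that last setting (4.28%). KOBLM against KO: 0, but 1 (H2-Oa) with DESeq2, its size factors, library size alone or Rn45s left out (1.68 to 3.52%), and 2 with those libraries (4.18%). Bleomycin averaged: 0, but 2 without a filter (5.26%) and 4 with those libraries (10.3%). Genotype averaged: 0, but 3 (4.08%) and 6 (6.16%). Leaving out each library gave 0 to 3, 0 to 5, 0 to 0 and 0 to 1 for these 4 pairs, 0 to 3 and 0 to 4 for the averages and 0 to 1 for the interaction. In these fits 2.08 to 5.45, 1.67 to 3.34, 0.627 to 3.2 and 0.741 to 2.88% of all genes passed for the pairs. For the averages it was 3.46 to 7.16 and 2.59 to 4.97%, and for the interaction 2.36 to 4.82%.

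For the 36 pathway genes, with the 2 libraries per group with the most genes, 6 passed in BLM against Con, 0 in KOBLM against BLM, 7 in KO against Con, 2 in KOBLM against KO, and 5 in each average, where 9.9, 5.72, 4.28, 4.18, 10.3 and 6.16% of all genes passed. Without a filter 2 passed in KOBLM against BLM (3.69% of all genes), 1 in KO against Con (1.31%) and 3 for genotype (4.08%). DESeq2 gave 1 in KO against Con (2.87%). With the replicate block, 0, 0 and 1 passed in KOBLM against BLM, KO against Con and the interaction (2.01, 0.766 and 1.85% of all genes). Leaving out each library gave 1 to 4, 0 to 3, 0 to 2 and 1 to 2 for the 4 pairs, 2 to 5 and 1 to 4 for the averages and 0 to 3 for the interaction.

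H2-DMa between KOBLM and BLM (-0.03) turned to 0.0194 with DESeq2, 0.0194 with its size factors, 0.0364 with library size alone, 0.0139 without a filter and 0.25 with the replicate block, and was -0.62 to 0.91 leaving out libraries. With the block, Ciita turned to -0.61 (BLM against Con) and 1.59 (KOBLM against BLM), and leaving out libraries gave -3.79 to 0.90 and -1.54 to 3.26. Leaving out libraries also turned Cd74 (-0.27 to 0.78), H2-DMb1 (-0.67 to 0.63) and H2-Oa (-1.40 to 1.35) between BLM and Con and H2-DMb1 (-0.98 to 0.32) between KOBLM and BLM, each without BLM 2. The cause was not tested. For the 8 correlations with Cd74, Pearson's r kept its sign and its side of an adjusted p of 0.05 in 16 checks, though r moved for Ctss (-0.05 to -0.46 without BLM 3), Ciita (0.57 to 0.31) and H2-DMa (0.34 to 0.17, both without BLM 2 and Con 2). Same-numbered libraries deviated together with r of -0.117 to 0.096 in 18 pairs, and 4 of 12 libraries were nearest their own number. This gave no sign that the numbers pair the mice, but with 3 libraries per group it cannot exclude a pairing or a shared batch. A coefficient of variation of 1.44 and 3 mice per group limit what could be called.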
